A study of Mus musculus with 19 samples.

Results

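The acetylcholine receptor of the neuromuscular junction and the proteins that gather it under the nerve terminal were followed in the quadriceps of mice with a model of spinal and bulbar muscular atrophy. The 10 genes are Chrna1, Chrnb1, Chrnd, Chrng, Chrne, Musk, Rapsn, Agrn, Lrp4 and Dok7, taken by their gene names in the array files. They are 10 of the 30214 gene names on the array and 13 of its 39429 probes, with 2 probes each for Chrna1, Agrn and Dok7 and 1 for each of the others, and all 13 passed the filter on dim probes. The quadriceps RNA came from congenic C57Bl6J males of 180 days of age, either wild type (CTR) or carrying the AR113Q allele, a knock-in with an expanded polyglutamine tract. A knock-in allele is not restricted to muscle. Feeding with either purified normal chow (NCD) or fat-rich chow (HFD, high-fat diet) began at 40 days of age. The 19 arrays, each with 1 Cy3-labelled RNA, held 5 samples of each genotype on NCD and, on HFD, 4 CTR and 5 AR113Q samples. The sources used here do not say whether each sample was a single mouse, so the p-values measure only the spread between these samples.

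In adult muscle the acetylcholine receptor is a pentamer of α, β, δ and ε subunits, and the γ subunit takes the place of ε in the fetal receptor and returns to muscle fibers after loss of the nerve. Agrin from the motor nerve binds LRP4 on the fiber, which activates the kinase MuSK. DOK7 binds MuSK from inside the cell, and rapsyn anchors the clustered receptors. In an innervated fiber the receptor genes are transcribed mainly by the nuclei beneath the nerve terminal, and electrical activity keeps them low elsewhere. Myogenic factors such as myogenin act on these genes through E-boxes in their promoters, and ETS factors of the GABP type act on some of them through the N-box.

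Signals are given as log2 of the processed spot intensity minus the 75th percentile of the same array, so a value of 0 is a signal at that percentile. Signals of different probes do not give the relative levels of their transcripts. Between 67.1% and 80.1% of probes stood well above background on each array. Each of the 13 receptor and junction probes did so on every array except the Chrng probe on 1 of 4 CTR-HFD arrays, and none was saturated. The highest correlation between 2 arrays was 0.9934, and no 2 arrays held identical values. Muscle fiber markers were strong on all arrays, and the log2 of their summed signal lay between 10.69 and 11.50.

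In AR113Q muscle the α subunit, MuSK, LRP4 and DOK7 transcripts were higher than in CTR on both diets, whereas the γ, δ and ε subunits, rapsyn and agrin showed no difference that passed the test. For DOK7 on HFD only the probe A_51_P155458 passed. Its groups overlapped there, and its HFD call was lost under several other settings of the processing. On NCD, 6 of the 13 probes were called higher, for 4 genes, and 0 were called lower, against 7.92% and 9.36% of all 32026 probes tested (limma, Benjamini-Hochberg adjusted p under 0.05). On HFD, 6 of the 13 probes were called higher, for 5 genes, and 0 lower, against 7.61% and 10.3% of all probes. Higher calls made up 45.8% of all calls on NCD and 42.6% on HFD, against 53.7% and 56.7% after quantile normalization, 55.5% and 59.1% after median centring and 53.9% and 57% in the authors' values. The fifth gene on HFD was Chrnb1. The AR113Q arrays all lay above the CTR arrays for 5 of the 13 probes on NCD and for 5 on HFD, where 7.04% and 7.07% of all probes did so. The median log2 difference over the 13 probes was 0.34 on NCD and 0.38 on HFD, beside -0.06 and -0.08 over all probes. The genes were chosen with earlier results of these data known, and some have 2 probes. Their shares beside those of all probes are thus a description and not a test. The NCD and HFD genotype comparisons share no samples. They do share the estimate of the spread of each probe, taken over all 4 groups, and the same slides of the array platform. They are therefore not fully independent of each other.

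**Figure D1:**
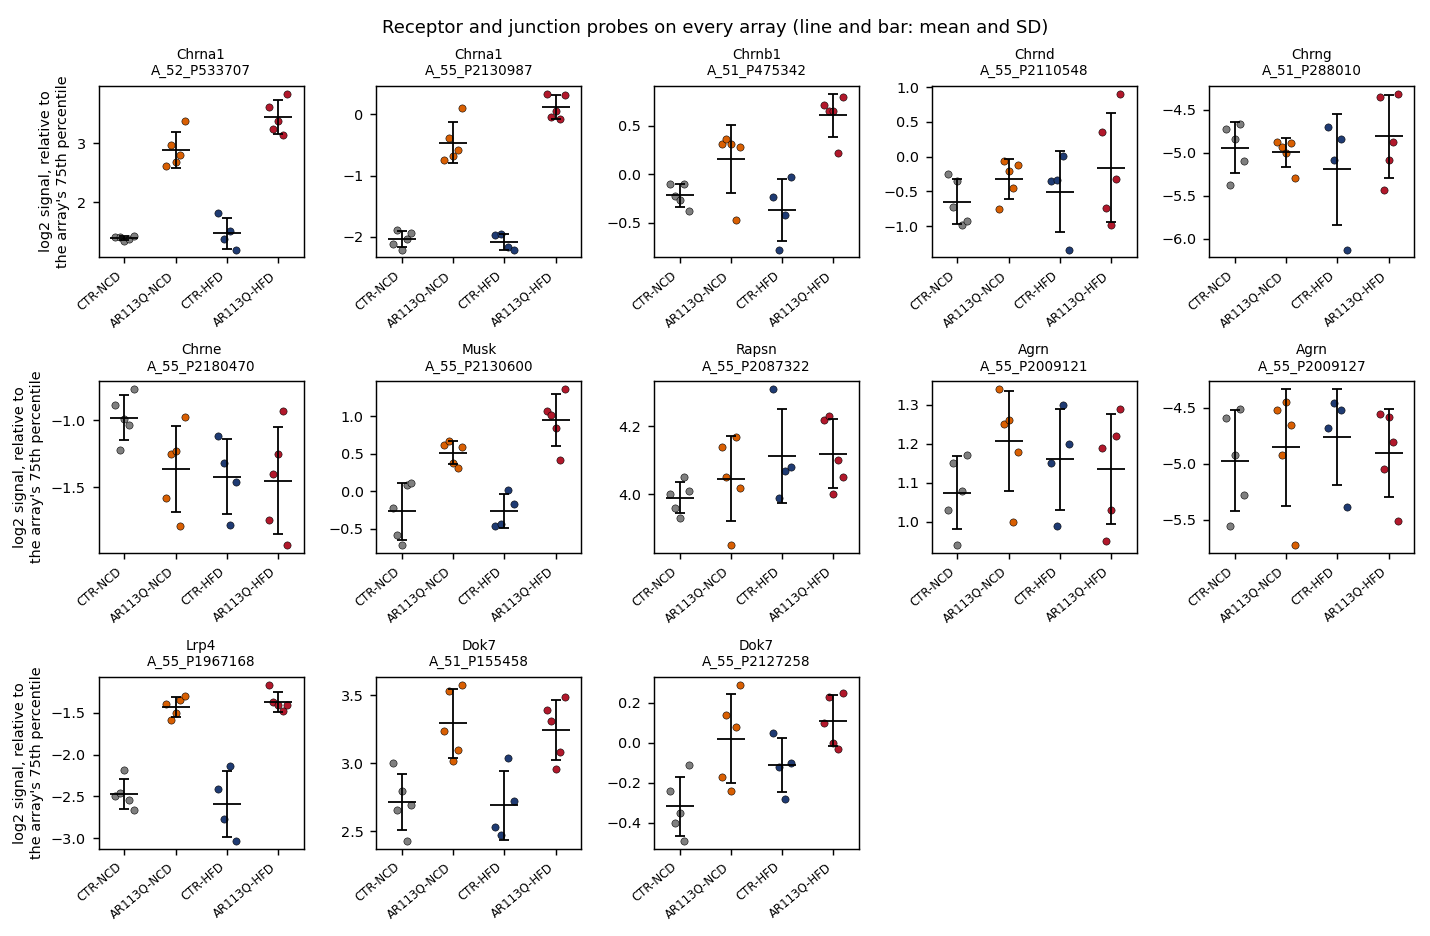
Log2 signal of each of the 13 probes relative to the 75th percentile of its array, with 1 point per array in each of the 4 genotype and diet groups, a line at the group mean and a bar of 1 SD. Both Chrna1 probes, Musk and Lrp4 have every AR113Q array above every CTR array of the same diet, and the scales differ between panels.

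Chrna1 encodes the α subunit, which carries most of the acetylcholine binding site and is present in both the fetal and the adult receptor. With probe A_52_P533707 (transcript NM_007389, mm9 chr2:73404112-73404171, minus strand) the log2 signal was 1.41, 1.4, 1.33, 1.37 and 1.42 in the CTR-NCD samples and 2.61, 2.97, 2.68, 2.80 and 3.39 in the AR113Q-NCD samples. On HFD it was 1.81, 1.38, 1.5 and 1.19 in CTR and 3.62, 3.25, 3.39, 3.15 and 3.85 in AR113Q. The CTR and AR113Q arrays did not overlap on either diet, and the lowest AR113Q array stood well above the highest CTR array. The level in AR113Q was 2.83-fold that of CTR on NCD (log2 difference 1.5, SE 0.15, limma adjusted p = 6.764e-06) and 3.96-fold on HFD (1.98, SE 0.16, limma adjusted p = 1.314e-06). A two-sided exact permutation test gave p = 0.007937 on each diet, the smallest value that these group sizes allow.

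The other Chrna1 probe, A_55_P2130987 (mm9 chr2:73401389-73401448), gave the same picture. Its log2 signal was -2.11, -1.89, -2.21, -2.04 and -1.94 in CTR-NCD and -0.74, -0.39, -0.68, -0.59 and 0.10 in AR113Q-NCD. On HFD it was -1.97, -1.96, -2.17 and -2.21 in CTR and 0.34, -0.04, 0.05, -0.08 and 0.32 in AR113Q. Again no CTR array reached an AR113Q array. The AR113Q level was 2.99-fold on NCD (log2 difference 1.58, limma adjusted p = 2.058e-06) and 4.58-fold on HFD (2.20, limma adjusted p = 3.777e-07). Both probes read the same transcript, so they are not independent evidence. Once the group means were removed, their values still moved together over the 19 arrays (r = 0.86). On every slide of the array platform that held both genotypes of a diet, AR113Q was higher, in 5 of 5 slides on NCD and 4 of 4 on HFD.

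Chrnb1 encodes the β subunit, a structural subunit through which the receptor is linked to rapsyn. Its probe A_51_P475342 (NM_009601, chromosome 11) had log2 signals of -0.10, -0.23, -0.27, -0.10 and -0.38 in CTR-NCD and 0.31, 0.36, 0.31, -0.47 and 0.28 in AR113Q-NCD. On HFD the values were -0.24, -0.78, -0.42 and -0.03 in CTR and 0.72, 0.65, 0.65, 0.22 and 0.80 in AR113Q. On NCD 1 AR113Q array, replicate 4, was lower than all CTR arrays while the other 4 were higher. On HFD the genotypes did not overlap. Chrnb1 was 1.97-fold in AR113Q on HFD (log2 difference 0.98, SE 0.17, limma adjusted p = 0.000776). The NCD difference of 0.38 did not pass (SE 0.16, limma adjusted p = 0.1381). Without AR113Q-NCD replicate 4 it was 0.53 (limma adjusted p = 0.01211). In 18 of the 19 fits that left out 1 array it did not pass (limma adjusted p up to 0.2687). The 2 diets were not shown to differ, since the genotype by diet term of 0.60 had an unadjusted p of 0.02191 and an adjusted p of 0.9993 in limma.

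Chrnd, Chrng and Chrne encode the δ, γ and ε subunits. The δ subunit is common to the fetal and adult receptors. Chrnd (A_55_P2110548, mm9 chr1:89096585-89096644) had log2 signals on NCD from -0.98 to -0.25 in CTR and -0.76 to -0.06 in AR113Q, and on HFD from -1.34 to 0.01 in CTR and -0.99 to 0.91 in AR113Q, so the genotypes overlapped on each diet. The AR113Q minus CTR log2 difference was 0.33 on NCD (95% interval -0.35 to 1.01, limma adjusted p = 0.5695) and 0.35 on HFD (-0.37 to 1.07, limma adjusted p = 0.5589). These intervals do not exclude a rise of up to 1.01 and 1.07 on the log2 scale. Within the HFD comparison the difference ran from -0.99 to 2.25 between slides.

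The fetal γ subunit, a transcript commonly read as a sign of denervation, gave a dim signal in all groups. The Chrng probe A_51_P288010 (NM_009604) lies on chromosome 1 of mm9, and its positions 89106072 to 89106353 span 282 bases, more than the 60 bases of the probe, so that it crosses at least 1 intron. It is shown because it carries the γ readout.

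Chrng probe: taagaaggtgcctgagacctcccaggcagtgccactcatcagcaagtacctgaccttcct

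Its log2 signal was -4.72, -5.38, -4.84, -4.67 and -5.10 in CTR-NCD and -4.87, -4.93, -5.00, -4.89 and -5.29 in AR113Q-NCD. On HFD it was -4.70, -5.09, -4.84 and -6.13 in CTR and -4.35, -5.43, -5.09, -4.87 and -4.31 in AR113Q. The groups overlapped on both diets. The CTR-HFD array at -6.13 was the one not well above background. Between genotypes the log2 difference was -0.05 on NCD (95% interval -0.59 to 0.49, limma adjusted p = 0.9291) and 0.38 on HFD (-0.19 to 0.95, limma adjusted p = 0.3948), and without that CTR-HFD array the latter was 0.07. A rise of the Chrng probe signal beyond 0.49 on the log2 scale on NCD thus lay outside the interval, while one of up to 0.95 on HFD did not. These bounds are for the dim signal of this probe and do not bound a change of the transcript.

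Chrnd and Chrng moved together from array to array. After subtraction of the group means their values correlated with r = 0.73 over the 19 arrays, which share the 5 slides, and this is given as a description only. The ε subunit replaces γ as the junction matures. The Chrne probe A_55_P2180470 (mm9 chr11:70429215-70429274, minus strand) had log2 signals on NCD from -1.22 to -0.77 in CTR and -1.79 to -0.98 in AR113Q, and on HFD from -1.78 to -1.12 in CTR and -1.93 to -0.93 in AR113Q. CTR-NCD had the highest mean of the 4 groups (-0.98), and its arrays overlapped those of each other group. The log2 difference between genotypes was -0.38 on NCD (95% interval -0.77 to 0.01, limma adjusted p = 0.1913) and -0.03 on HFD (-0.45 to 0.39, limma adjusted p = 0.9443). On NCD the AR113Q array was the lower one on each of 5 slides.

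**Figure D2:**
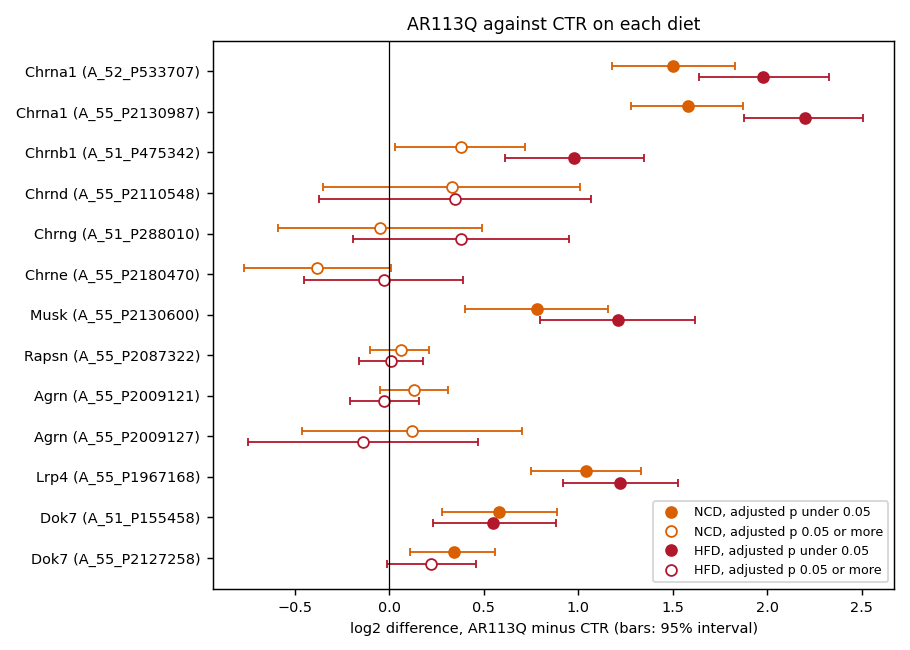
Log2 difference between AR113Q and CTR for each probe on NCD (orange) and HFD (red), with 95% intervals from limma and filled points where the adjusted p is under 0.05. The Chrna1, Musk and Lrp4 intervals lie above 0 on both diets, the Chrnd, Chrng, Rapsn and Agrn intervals include 0 on both, and Chrnb1 is filled on HFD.

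The RefSeq promoters of these genes were read because several of them moved together. The table of promoters (GRCm38.p6, a different build from the mm9 positions of the probes) held 7 of the 10 genes with 9 transcript starts. Chrnd, Rapsn and Lrp4 were not matched. The 250 bases before each start are shown for Chrna1 and Musk, which rose on both diets, and for the fetal and adult subunits Chrng and Chrne, which were not called. Capitals mark E-boxes (CANNTG) and, in Chrne, 1 N-box (CCGGAA). Chrna1 lies at chr2:73580339-73580588 on the minus strand, Musk at chr4:58285712-58285961 on the plus strand, Chrng at chr1:87205561-87205810 on the plus strand and Chrne at chr11:70619195-70619444 on the minus strand.

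Chrna1 promoter: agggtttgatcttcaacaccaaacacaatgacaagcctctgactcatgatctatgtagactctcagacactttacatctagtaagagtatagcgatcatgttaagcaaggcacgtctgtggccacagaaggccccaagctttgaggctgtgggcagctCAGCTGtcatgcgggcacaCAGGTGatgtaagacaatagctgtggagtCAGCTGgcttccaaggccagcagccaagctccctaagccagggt
Musk promoter: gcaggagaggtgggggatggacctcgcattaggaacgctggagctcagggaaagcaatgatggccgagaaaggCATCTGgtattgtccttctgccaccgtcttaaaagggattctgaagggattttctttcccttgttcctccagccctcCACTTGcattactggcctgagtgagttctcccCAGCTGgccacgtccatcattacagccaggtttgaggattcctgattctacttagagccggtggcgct
Chrng promoter: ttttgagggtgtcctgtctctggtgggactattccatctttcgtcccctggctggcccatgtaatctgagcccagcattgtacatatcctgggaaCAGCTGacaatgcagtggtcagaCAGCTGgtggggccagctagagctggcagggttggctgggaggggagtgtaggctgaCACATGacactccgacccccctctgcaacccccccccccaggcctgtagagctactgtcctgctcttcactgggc
Chrne promoter: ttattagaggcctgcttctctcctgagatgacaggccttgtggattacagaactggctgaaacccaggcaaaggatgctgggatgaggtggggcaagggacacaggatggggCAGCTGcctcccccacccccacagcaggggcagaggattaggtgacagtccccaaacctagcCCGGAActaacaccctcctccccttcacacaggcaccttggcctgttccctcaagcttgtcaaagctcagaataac

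Searched on both strands, the E-box CAGCTG, a special case of CANNTG, was found 2 times before the Chrna1 start, 2 times before the Chrng start and 1 time each before the Musk and Chrne starts. It was thus in 4 of the 7 genes and in 4 of the 9 windows. Of all 32851 promoters of this length, 13.0% held it. The Chrnb1, Agrn and Dok7 windows did not hold it. CANNTG in any form was in 7 of the 9 windows, beside 66.2% of all promoters. The N-box CCGGAA was in 1 of the 9, that of Chrne, beside 12% of all promoters. Genes with and without a called difference thus both held CAGCTG, and a match of letters does not show that a factor binds there.

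**Figure D3:**
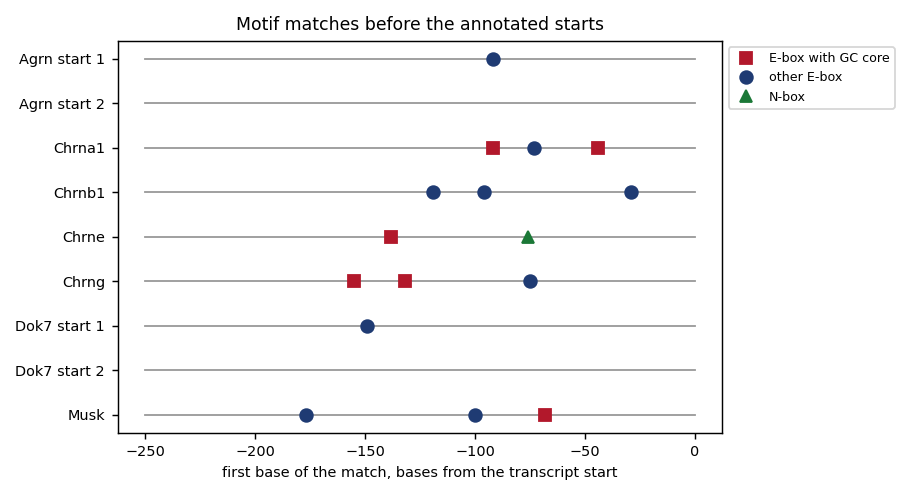
Positions of E-boxes with the GC core (squares), other E-boxes (circles) and N-boxes (triangles) in the 250 bases before the RefSeq transcript starts of 7 genes, with 2 starts each for Agrn and Dok7, in bases from the start at 0. Chrna1 and Chrng each have 2 E-boxes with the GC core, and only the Chrne window has an N-box.

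Musk encodes the muscle-specific kinase at the center of the agrin pathway. The log2 signal of its probe A_55_P2130600 (NM_001037127, mm9 chr4:58387070-58387129) was -0.22, -0.59, -0.72, 0.08 and 0.11 in CTR-NCD and 0.62, 0.67, 0.38, 0.31 and 0.59 in AR113Q-NCD. In the HFD groups it was -0.47, -0.44, 0.01 and -0.17 in CTR and 1.07, 1.02, 0.84, 0.42 and 1.36 in AR113Q. No CTR array was as high as the lowest AR113Q array of its diet. Musk was 1.72-fold in AR113Q on NCD (log2 difference 0.78, SE 0.18, limma adjusted p = 0.006045) and 2.31-fold on HFD (1.21, SE 0.19, limma adjusted p = 0.0003043), with an exact permutation p = 0.007937 on each diet.

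Lrp4, the receptor for agrin on the muscle side, rose to a similar extent. Probe A_55_P1967168 (NM_172668, mm9 chr2:91353566-91353625) had log2 signals of -2.50, -2.46, -2.18, -2.54 and -2.66 in CTR-NCD against -1.39, -1.59, -1.50, -1.35 and -1.30 in AR113Q-NCD. In CTR-HFD they were -2.41, -2.77, -2.14 and -3.03 against -1.16, -1.37, -1.41, -1.48 and -1.40 in AR113Q-HFD. The AR113Q arrays were tightly grouped, with an SD of 0.12 on each diet, and lay above all CTR arrays. The difference was 2.06-fold on NCD (log2 1.04, SE 0.14, limma adjusted p = 5.401e-05) and 2.34-fold on HFD (1.22, SE 0.14, limma adjusted p = 2.337e-05). With normexp background correction in place of the processed signal neither passed, with a log2 difference of 0.22 on NCD (adjusted p = 0.4428) and 0.94 on HFD (adjusted p = 0.06163).

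Dok7 encodes the cytoplasmic activator of MuSK. Probe A_51_P155458 (mm9 chr5:35423495-35423554) gave log2 signals on NCD from 2.43 to 3 in CTR and 3.02 to 3.58 in AR113Q, with no overlap, and on HFD from 2.47 to 3.04 in CTR and 2.96 to 3.49 in AR113Q, where 1 CTR array at 3.04 lay within the AR113Q range. The AR113Q level was 1.5-fold on NCD (log2 difference 0.58, SE 0.14, limma adjusted p = 0.009732) and 1.47-fold on HFD (0.55, SE 0.15, limma adjusted p = 0.01766). The HFD call was lost without CTR-HFD replicate 1 (0.50, adjusted p = 0.05843) or replicate 2 (0.48, adjusted p = 0.06482), after median centring (0.62, adjusted p = 0.0661), with only the 2 HFD groups fitted (0.55, adjusted p = 0.05286) and with normexp (0.53, adjusted p = 0.3254). The NCD call of this probe was lost with normexp (0.77, adjusted p = 0.05991). Probe A_55_P2127258 (NM_172708) gave 0.34 on NCD (SE 0.11, limma adjusted p = 0.03524) and 0.22 on HFD (SE 0.11, limma adjusted p = 0.2031), with overlapping groups on both diets. Its NCD call was lost after median centring (0.40, adjusted p = 0.1494), with normexp (0.20, adjusted p = 0.1559), in the authors' values (0.30, adjusted p = 0.06823), with only the 2 NCD groups fitted (adjusted p = 0.08786) and when any of 6 arrays was left out, namely CTR-NCD replicates 2, 3 and 4 and AR113Q-NCD replicates 2, 4 and 5, with adjusted p up to 0.1024.

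Rapsn and Agrn gave no call. Rapsn is the gene for the receptor-anchoring protein rapsyn. Its probe A_55_P2087322 (NM_009023, mm9 chr2:90885826-90885885) had means on NCD of 3.99 in CTR (SD 0.04) and 4.05 in AR113Q (SD 0.13), and on HFD of 4.11 in CTR (SD 0.14) and 4.12 in AR113Q (SD 0.10), with overlapping groups. The genotype difference was 0.06 on NCD (95% interval -0.10 to 0.21) and 0.01 on HFD (-0.16 to 0.18), so a change beyond these bounds lay outside the intervals. Agrn encodes agrin, of which the nerve makes the form that clusters receptors and muscle makes others, and these probes do not tell which cell made the RNA. Probe A_55_P2009121 (NM_021604) gave 0.13 on NCD (-0.05 to 0.31) and -0.03 on HFD (-0.21 to 0.16). Probe A_55_P2009127 gave 0.12 (-0.46 to 0.70) and -0.14 (-0.75 to 0.47). It did not move with the other Agrn probe from array to array (r = -0.20 after removal of group means, 19 arrays). Its signal was dim, with group means from -4.97 to -4.76, against 1.08 to 1.21 for A_55_P2009121, so this r does not show different Agrn transcripts.

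The question of whether HFD changed these transcripts was addressed within each genotype. In AR113Q, HFD against NCD called 0 of the 13 probes, where limma called 8 of all 32026 (0.025%). Of all 32026 probes 2148 had an unadjusted p under 0.05 in limma, as did 4 of the 13. These were the 2 Chrna1 probes, Chrnb1 and Musk, all higher on HFD, with log2 differences of 0.56 and 0.58 for Chrna1 (limma adjusted p = 0.4096 and 0.3196), 0.45 for Chrnb1 (limma adjusted p = 0.5929) and 0.43 for Musk (limma adjusted p = 0.6958). For each of the 4 probes the HFD array was higher than the NCD array on 5 of 5 slides, and the groups overlapped. These values use the same AR113Q samples as the genotype comparisons and are not independent of them. In CTR, 0 of the 13 probes were called, as were 0% of all probes. Of all 32026 probes 2754 had an unadjusted p under 0.05, and so did 1 of the 13, a similar share. That 1 probe was Chrne, lower by -0.44 on HFD (limma adjusted p = 0.5635) and lower on 4 of 4 slides. The genotype by diet term called 0 of the 13 and 0% of all probes. Of all 32026 probes 1495 had an unadjusted p under 0.05 for this term, as did 3 of the 13. These 3 were the Chrna1 probes (0.48 and 0.62, limma adjusted p = 0.9993 and 0.9182) and Chrnb1.

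**Figure D4:**
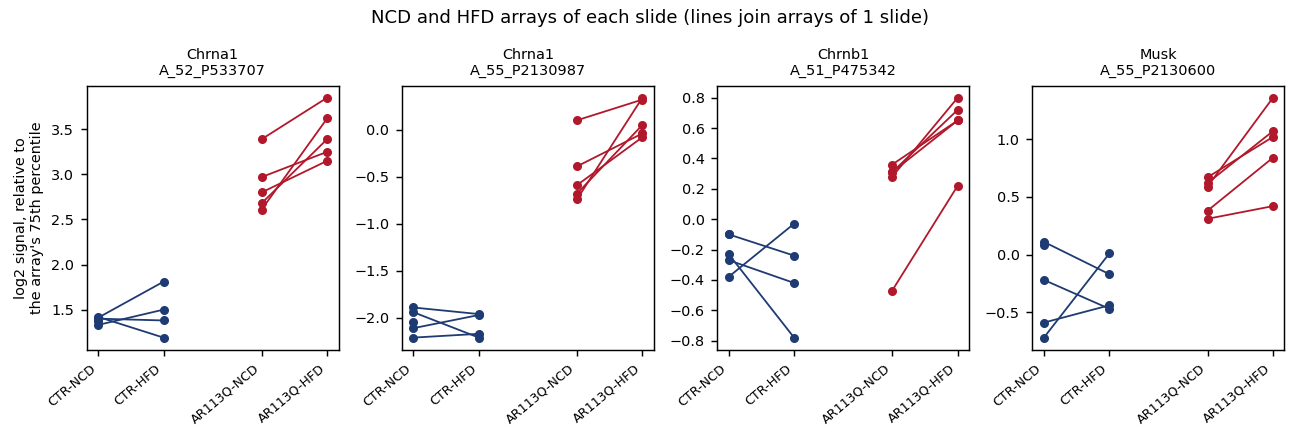
Log2 signal of both Chrna1 probes, Chrnb1 and Musk on NCD and HFD arrays, with lines joining arrays of the same genotype on 1 slide, CTR in blue and AR113Q in red. All 5 AR113Q lines rise from NCD to HFD in each panel, and the 4 CTR lines run both ways. The panels show the 4 probes with an unadjusted p under 0.05 (limma) for diet in AR113Q. The genotype by diet term passed for none of them.

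For Chrna1 the order of the group means was AR113Q-HFD, AR113Q-NCD, then both CTR groups (0.08 and -0.04 between CTR-HFD and CTR-NCD). Its diet difference passed in neither genotype, and the arrays of the 2 diets overlapped in each. Lrp4 and Dok7 (A_51_P155458) fell into 2 levels by genotype, with diet differences of 0.06 and -0.05 in AR113Q and of -0.12 and -0.02 in CTR, none of which exceeded the spread between arrays. Over all 19 arrays Chrna1 (A_52_P533707) correlated with Lrp4 (r = 0.93), Musk (r = 0.90), Chrnb1 (r = 0.82) and Dok7 A_51_P155458 (r = 0.81). Within the groups these values fell to 0.37, 0.32, 0.25 and 0.46, so most of the shared movement over the arrays was that between groups. The 5 genes outside the 10 whose probes followed Chrna1 most closely over the 19 arrays were Sat2 (r = 0.984), Tspan13 (r = 0.982), Ncor1 (r = 0.982), 2700046G09Rik (r = 0.980) and Gprasp2 (r = 0.978). Musk was followed most closely by an array entry named NAP022485-001 (r = 0.976), then by Mpv17l, Zfyve28, Fam214b and Sctr (r = 0.954 to 0.943). For Chrng the closest were Adam21, Tmprss4, Gal3st2, Rab15 and Pgm5, with r between 0.808 and 0.854. These probes were searched among all tested ones and share arrays and slides, so r is a description.

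Other genes of the junction were described with 1 probe per gene, the tested one with the highest mean signal, and read against all 24741 genes, of which 7.96% were called higher and 9.11% lower on NCD and 7.37% higher and 10.6% lower on HFD. The median log2 difference over all genes was -0.06 on NCD and -0.09 on HFD. The lists of junction genes were also chosen with earlier results of these data known, so their counts are descriptions. Of 10 tested genes for activity-dependent regulators and their targets, 4 rose on NCD (median 0.26) and 3 on HFD (median -0.08), and 0 fell. Without CTR-NCD replicate 2 or 3, AR113Q-NCD replicate 5 or CTR-HFD replicate 3, 1 was called lower on NCD. Gadd45a, induced in muscle on denervation, ranged from -0.19 to 0.26 in CTR-NCD and from 0.74 to 1.64 in AR113Q-NCD, without overlap (log2 difference 1.23 on NCD and 1.04 on HFD, limma adjusted p = 1.112e-05 and 8.096e-05). Runx1, a transcription factor that protects denervated muscle from wasting, rose by 1.24 and 1.08 (limma adjusted p = 2.78e-05 and 0.0001611), and its other probe rose on both diets too (1.20 and 1.53). With normexp the first probe gave -0.07 on NCD and 0.76 on HFD and did not pass on either diet. Myog, for myogenin, which drives receptor genes, rose by 0.82 and 0.69 (limma adjusted p = 0.008616 and 0.03013). Hdac5 rose by 0.25 on NCD (limma adjusted p = 0.0219). Myog and Hdac5 were named after their values were seen.

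Of 15 genes of the synaptic cleft and basal lamina, 4 rose and 1 fell on NCD (median 0.07), and 5 rose and 1 fell on HFD (median 0.11). These counts rested on few arrays. On NCD 1 was called higher without CTR-NCD replicate 4 or 5 or AR113Q-NCD replicate 1 or 3, and 0 were called lower without CTR-NCD replicate 2 or 5 or AR113Q-NCD replicate 2, 3 or 5. On HFD 3 were called higher without CTR-HFD replicate 2, while 0 were called lower without CTR-HFD replicate 1 or 4 or AR113Q-HFD replicate 2 or 5, and 2 without CTR-NCD replicate 2 or AR113Q-HFD replicate 4. Bche, which encodes butyrylcholinesterase, rose by 0.71 on NCD and 0.77 on HFD (limma adjusted p = 2.903e-05 and 2.44e-05), and with normexp the NCD value was 0.45 (adjusted p = 0.05707). Ache, for the acetylcholinesterase that ends transmission, rose by 0.46 on NCD and 0.97 on HFD (limma adjusted p = 0.04086 and 0.0003868). With the replicate number as a block the NCD value of Ache did not pass (limma adjusted p = 0.05644). The same held after median centring (0.52, adjusted p = 0.09754) and with normexp (0.39, adjusted p = 0.1413). It also held without the filter on dim probes (adjusted p = 0.05486) and with only the 2 NCD groups fitted (adjusted p = 0.0579). Nor did the NCD value of Ache pass when any of 8 arrays was left out (adjusted p up to 0.1152). These were CTR-NCD replicates 2, 4 and 5, AR113Q-NCD replicates 1, 2, 3 and 5 and AR113Q-HFD replicate 4. The other Ache probe rose by 0.55 and 1.03. Lamb2 rose by 0.29 on both diets. The rest of the called genes were Hspg2 (0.27) and Col4a4 (-0.45) on NCD and Lama2 (0.41), Col4a3 (0.56) and Lama5 (-0.30) on HFD.

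Of 13 genes of the postsynaptic membrane and cytoskeleton, 3 rose and 3 fell on NCD (median 0.03), and 4 rose and 2 fell on HFD (median 0.04). The count that fell on HFD was 1 without any of CTR-NCD replicates 1, 2 and 3, AR113Q-NCD replicates 1, 2, 3 and 5, CTR-HFD replicates 1 and 4 and AR113Q-HFD replicates 1, 3 and 5. Nes, encoding the intermediate filament protein nestin that gathers beneath the junction, had mean signals on NCD of 2.41 in CTR and 3.28 in AR113Q, and on HFD of 2.35 in CTR and 3.91 in AR113Q. The difference was 0.87 on NCD and 1.56 on HFD (limma adjusted p = 0.0001041 and 1.383e-06), and the genotypes did not overlap. Pdzrn3, for a ubiquitin ligase that acts on MuSK, fell by 0.26 on NCD and by 0.55 on HFD (limma adjusted p = 0.03815 and 0.0002831). The NCD value did not pass without any of CTR-NCD replicates 1, 3, 4 and 5 and AR113Q-NCD replicates 1, 3, 4 and 5 (adjusted p up to 0.09795), nor under 6 other settings, quantile normalization and median centring among them. Scn4a, the adult muscle sodium channel, fell by 0.53 on NCD (limma adjusted p = 0.001741), with a value of -0.32 on HFD (limma adjusted p = 0.05843). Its NCD call was lost after median centring (-0.47, adjusted p = 0.05759) and with normexp (-0.29, adjusted p = 0.1441). Dtna (0.43 and 0.45) and Ank3 (0.34 and 0.53) rose on both diets, and Ncam1 rose on HFD (0.90).

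**Figure D5:**
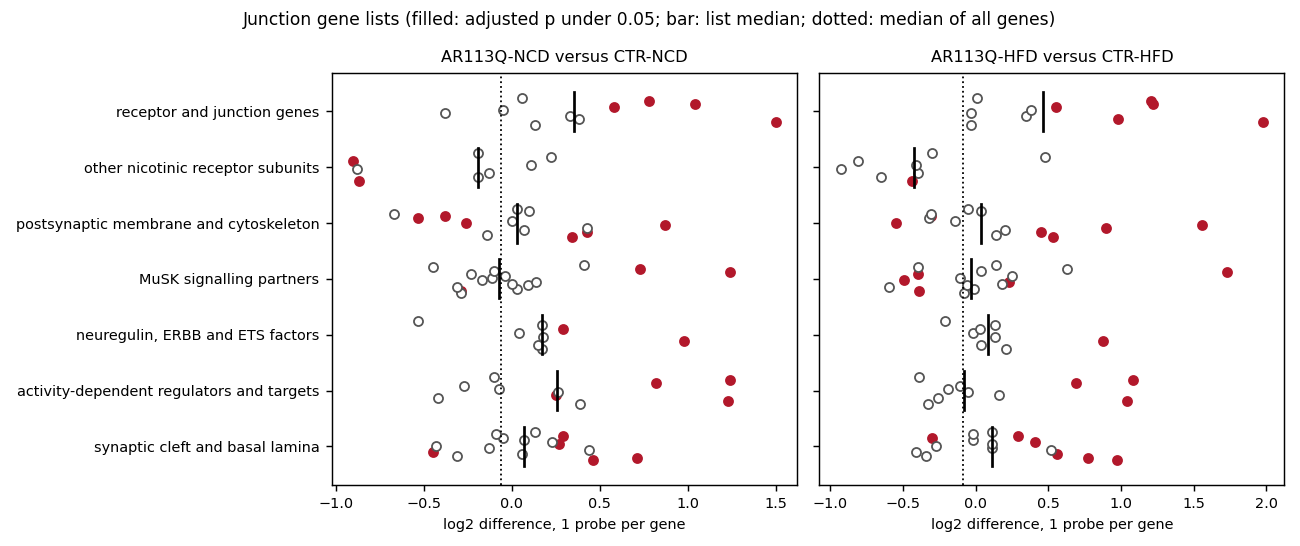
Log2 difference between AR113Q and CTR for 1 probe per gene in the 10 receptor and junction genes and 6 further junction lists, NCD on the left and HFD on the right, with filled points for adjusted p under 0.05, a bar at each list's median and a dotted line at the median of all genes (-0.06 and -0.09). The median of the 10 genes is at 0.35 and 0.47, with 8 of the 10 above 0 on each diet, and every list holds genes on both sides of 0.

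Among 16 partners of MuSK signalling, 2 rose and 1 fell on NCD (median -0.07), and 2 rose and 3 fell on HFD (median -0.03). On NCD 1 was called higher without CTR-NCD replicate 5. On HFD 1 was called higher without any of CTR-NCD replicates 2, 3 and 4, AR113Q-NCD replicates 1, 3 and 5, CTR-HFD replicates 1 and 2 and AR113Q-HFD replicates 2 and 5. Pak1, a kinase that acts on the actin cytoskeleton downstream of MuSK, had log2 signals on NCD from -0.15 to 0.48 in CTR and 1.01 to 1.78 in AR113Q, and on HFD from -0.27 to 0.01 in CTR and 1.30 to 1.81 in AR113Q. The difference was 1.24 on NCD and 1.73 on HFD (limma adjusted p = 1.776e-05 and 2.175e-06). Abl2 fell by 0.29 and 0.39 (limma adjusted p = 0.002626 and 0.0003944) but did not pass after median centring (adjusted p = 0.262 and 0.1301). Dnaja3, for a cochaperone that binds MuSK, fell by 0.49 on HFD (limma adjusted p = 0.0004095), and gave -0.17 on NCD (limma adjusted p = 0.1347). The HFD call was lost after median centring (-0.42, adjusted p = 0.06241) and with normexp (-0.53, adjusted p = 0.09484). On HFD Ctnnb1 rose (0.23) and Gsk3b fell (-0.40). Of 8 genes for neuregulin, its receptors and ETS factors, 2 rose on NCD (median 0.17) and 1 on HFD (median 0.08). Erbb4, a neuregulin receptor, rose by 0.98 and 0.88 (limma adjusted p = 0.001232 and 0.004447), although with normexp it gave -0.50 on NCD and 0.39 on HFD and passed on neither diet. Gabpa, the N-box binding factor, rose by 0.29 on NCD (limma adjusted p = 0.01591). Of 8 tested nicotinic subunits found mainly outside muscle, 0 rose, Chrna9 and Chrna10 fell on NCD (-0.90 and -0.87) and Chrna10 on HFD (-0.44), with list medians of -0.19 and -0.43. On NCD 1 was called lower without CTR-NCD replicate 1, 3 or 4 or AR113Q-NCD replicate 2, 3 or 5. The HFD call of Chrna10 was lost when any of 11 arrays was left out (adjusted p up to 0.1116). These were all 4 CTR-HFD arrays, AR113Q-HFD replicates 1, 2, 4 and 5, CTR-NCD replicate 2 and AR113Q-NCD replicates 1 and 5. The call was also lost after quantile normalization (-0.33, adjusted p = 0.315) and median centring (-0.37, adjusted p = 0.2707). Nor did the value pass in the authors' values (-0.23, adjusted p = 0.5138) or with normexp (-0.1). Without the filter on dim probes and with a trended robust eBayes it did not pass either (adjusted p = 0.05236 and 0.07565). Dtna, Ank3, Ncam1, Ctnnb1, Gsk3b, Gabpa, Chrna9 and the laminin, collagen and perlecan genes were also named after their values were seen.

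Markers of other cells were read on the same arrays. The log2 of the summed signal of 9 Schwann cell genes was on NCD 2.13 to 2.74 in CTR and 2.81 to 2.99 in AR113Q, without overlap. On HFD it was 2.43 to 2.91 in CTR and 2.55 to 2.96 in AR113Q. The mean log2 over the same 9 genes did overlap on NCD, at -1.6 to -1.06 in CTR and -1.11 to -0.84 in AR113Q. Of these genes, S100b passed the test on NCD (0.58) and 0 on HFD. The 8 muscle fiber genes summed on NCD to 11.13 to 11.45 in CTR against 10.86 to 11.11 in AR113Q, and on HFD to 11.13 to 11.50 against 10.69 to 10.97, with 5 of 8 lower in AR113Q on each diet and Des higher on HFD (0.31). Their mean log2 overlapped on NCD, at 7.81 to 8.22 in CTR and 7.67 to 7.86 in AR113Q. On HFD the means were 7.74 to 8.23 and 7.45 to 7.76, again with overlap. The 5 satellite cell genes summed on NCD to 4.63 to 4.78 in CTR and 4.61 to 4.73 in AR113Q, and on HFD to 4.55 to 4.87 and 4.73 to 5.04. Of them Calcr rose (0.59) and Cdh15 fell (-0.35) on NCD, and Itga7 (0.25) and Vcam1 (0.58) rose on HFD. Among 5 endothelial genes Vwf fell on NCD (-0.38), among 5 fibroblast genes Lum rose on both diets (0.27 and 0.41), and 0 of 5 macrophage, 5 adipocyte and 4 red blood cell genes were called. Of the 8 motor neuron markers, Chat, Isl1 and Nefl did not pass the filter. On every array at least 1 of the 5 tested was not well above background. Slc5a7 was among the dimmest, with a mean log2 signal of -6.25 over the arrays. It was lower in AR113Q on HFD (-2.63, SE 0.66, limma adjusted p = 0.009995) and did not pass on NCD (-1.14, limma adjusted p = 0.2529). Between the CTR groups its HFD minus NCD difference was 2.2, which did not pass either (limma adjusted p = 0.3913). The part of these cell types in the differences of the receptor genes was not tested. In whole muscle, fewer cells of a type and less RNA per cell cannot be told apart.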

How the data were processed

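Quadriceps RNA was hybridized by the authors to 1-colour Agilent mouse arrays with Cy3-labelled cRNA, and the scans were read with Agilent Feature Extraction 10.7.3.1. The deposited scanner files give intensity per spot, and the deposited processed intensity is the spot intensity less a fitted spatial background surface and scaled by a second fitted surface, as the columns of the files show. The authors also deposited log2 values of the same arrays, which were used as an alternative. The submitters' processing notes name limma. From the processed intensity, log2 values minus the 75th percentile of each array over non-control spots were computed, outlier spots were left out, and spots of a probe were averaged. The filter on dim probes asked for a share of 0.5 or more of spots well above background on 4 arrays or more, and 32026 of 39429 probes (24741 genes) passed. Groups came from the sample labels. All 4 groups entered 1 fit with limma 3.58.1, run in R 4.3.3 (lmFit, contrasts.fit, eBayes), p-values were adjusted with Benjamini-Hochberg over all probes tested, and a probe was called at an adjusted p under 0.05. Single probes were also compared with two-sided exact permutation tests. No depth exists for arrays, and the number of arrays limits the precision. The fit was tested on simulated data with known changes.

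The members and gene lists were chosen with earlier results of these data known. All 10 members were named with every probe. Of the other junction lists, the 12 genes with the smallest adjusted p in either genotype comparison were named, and some other called genes counted in the lists are not reported here by name. Likeness was Pearson's r over the 19 arrays, with the 5 closest genes named for Chrna1, Musk and Chrng.

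Replicate numbers follow the slides except for CTR-HFD replicate 4, which lies on the slide of the replicates numbered 5. Same-numbered arrays of AR113Q-NCD and CTR-NCD deviated together in all 5 pairs (r 0.24 to 0.45), and those of the HFD groups did not in all pairs. Alternatives were another scaling (quantile, median), normexp background correction, the authors' log2 values, other filters on dim probes, outlier spots kept, the slide or the replicate number as a block, array weights, a trended robust eBayes, only the 2 groups compared, and leaving out each array in turn. Promoter sequences came from RefSeq (GRCm38.p6), and no genome of the probes' build was used here.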

Additional observations from a re-analysis of the deposited data

Results flagged for a closer look

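Within the groups of 4 or 5 arrays, 5 of the 100 sets of values for the 13 probes and the 12 named junction genes held an array set apart from the rest by a gap larger than Dixon's 95% critical value, about the share that chance gives (5%). Chrnb1 held 2 of them, AR113Q-NCD replicate 4 at -0.47, where the next array was at 0.28, and AR113Q-HFD replicate 4 at 0.22, where the next was at 0.65. These 2 arrays were on 1 slide. Pdzrn3 held 2, CTR-NCD replicate 1 at 1.90 and CTR-HFD replicate 3 at 2.10, both the highest of their groups. Scn4a held 1, AR113Q-NCD replicate 4 at 0.79, the lowest of its group. No genotype by diet term passed the test for any of these 25 probes.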

How the results depend on the processing

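The 12 called values of the receptor and junction probes kept their direction in all 370 values under the alternatives and stayed past the threshold in 352. Of the 18 that did not, 5 came with normexp background correction and 8 from leaving out 1 array. The count of probes called higher on NCD was 3 with normexp, which also moved the median over all probes on NCD to -0.57. Normexp left the 5th percentile of the values between -2.30 and -0.80 on 5 arrays and between -4.33 and -3.74 on the other 14, so dim probes were compressed unequally. The 5 arrays were CTR-NCD replicates 3, 4 and 5, AR113Q-NCD replicate 4 and AR113Q-HFD replicate 1, so the groups were not affected alike. Leaving out each array in turn gave 5 to 6 probes called higher on NCD and 5 to 6 on HFD. With the replicate block, paired by number, the differences of all calls of the 13 probes kept their side of the threshold, with 6 called on NCD and 6 on HFD, and of the other named genotype calls Ache on NCD lost its call. Counts over all probes ranged from 449 to 3134 higher and 459 to 4794 lower on NCD, and from 407 to 3287 higher and 650 to 6068 lower on HFD, against 2538, 2999, 2436 and 3285. The share of higher calls among all calls on HFD was 42.6%, and 56.7% after quantile normalization, 59.1% after median centring and 57% in the authors' values. The authors' values held 11 of the 13 probes.

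Of the differences that changed sign, those of Erbb4 and Runx1 on NCD were called in the analysis reported (0.98 and 1.24) and the rest were not. Chrng on NCD was 0.07 after quantile normalization, 0.01 after median centring, 0.04 in the authors' values and ran from -0.16 to 0.02 when 1 array was left out. Agrn A_55_P2009127 on NCD was -1 with normexp and ran from -0.03 to 0.34, and on HFD it was 0.01 with the replicate block and ran from -0.35 to 0.01. Agrn A_55_P2009121 on HFD was 0.02 after quantile normalization, 0.04 after median centring and ran from -0.08 to 0.02. Rapsn on HFD was -0.02 with normexp, -0.01 with the slide as a block and -0.02 with array weights, and ran from -0.03 to 0.07. Chrne on HFD was 0.04 after median centring and 0.01 with normexp, and ran from -0.16 to 0.09. With normexp on NCD, Dnaja3 was 0.08, Erbb4 -0.50 and Runx1 -0.07. Normexp also ended the calls of Pdzrn3 on HFD (-0.55, adjusted p = 0.09271), Chrna10 on NCD (-1.16, adjusted p = 0.1413) and Abl2 on NCD (-0.15, adjusted p = 0.161). The cause was not tested.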
